A study of Mus musculus with 2 samples.

Results

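The cytosolic ribosomal protein genes were examined in DHS-seq data of M1 cells. Members were chosen by gene symbol, as every Rpl or Rps symbol that goes on with a number, at most 1 letter and any further digits. *Rplp0*, *Rplp1*, *Rplp2* and *Rpsa* were added, and the Rps6k kinases were left out. This gave 83 of 22605 genes, 50 of the large and 33 of the small ribosomal subunit. The rule uses no measured value, but earlier results of these data were known when it was set. M1 is a mouse line of myeloid leukemia cells, which resemble immature progenitors and mature toward macrophages under interleukin-6 (IL-6). One group was untreated M1 cells and the other was M1 cells kept for 4 to 5 days in medium with IL-6. Both were at passages 15 to 18 of the same line, grown with horse serum, and no other agent or genetic change is named for either. Each group is 1 library, so differences have no replicate check and carry no p-value. The sample labels name bone marrow as the source, and the cells are a line.

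Ribosomal proteins build the particle that makes all cellular protein, together with ribosomal RNA. The large subunit joins amino acids and the small subunit reads the messenger RNA. Their genes are active in every cell type, are mostly short, and many carry small nucleolar RNAs in their introns. A tract of pyrimidines at the start of their transcripts ties their translation to growth signals. In DHS-seq, DNase I cuts open chromatin such as active promoters first, so that many reads over a region show that it was accessible in the nuclei.

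The deposited table lists transcripts with the mean signal of all 700-bp windows touched by the coding span. The reads behind each mean could be recovered as whole numbers, with 1 read worth 1.0 in the untreated library and 1.03816 in the IL-6 library. Non-overlapping coding spans held 9102320 and 8544903 reads, or 7.58 and 7.39 reads per window on the table's scale. Strong windows of all genes were weaker in the IL-6 library. Of 310 single windows that could be recovered and had more than 100 reads in untreated cells, 310 were lower after IL-6, with a median log2 ratio of -2.18. Of 150 windows chosen instead for more than 50 reads in the IL-6 library, 141 were also lower than in untreated cells. In 1225 windows with 5 to 10 reads in untreated cells the median log2 ratio was 0.20. This general loss at strong windows moved with the lower ratios of the strong members below, and its part in them was not tested. Of the fixed markers, 1 of 6 progenitor genes and 3 of 7 macrophage genes were at least 2-fold lower. Of the macrophage genes 5 had ratios below 1 and 2 above (log2 ratios from -2.31 for *Cd68* to 0.31 for *Emr1*), and of the progenitor genes 4 had ratios below 1 and 2 above (-1.42 for *Prtn3* to 0.41 for *Kit*). No marker was at 0 reads. *Cd3e*, *Alb* and *Krt5*, which mark other cells, had means of 3.09 to 22.1 reads per window in untreated cells and 4.34 to 26.7 after IL-6.

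The promoters of 5 members are shown because they belong to the genes at the ends of the range. They are *Rps21* and *Rpl14* with strong signal, *Rpl36a* with the lowest ratio, and the pair *Rpl10* and *Rpl10l*. This pair differed most of the 6 pairs of paralogs by symbol, which leave out *Rps4y2* and *Rps4x*. The sequences are from RefSeq (GRCm38.p6), run from 100 bases before to 30 bases after the start site, and were placed on NCBIM37 by an exact match. Capitals mark the ETS-type motif CCGGAAG on either strand and runs of at least 8 pyrimidines that begin and end within the printed stretch and reach past 20 bases before the start site.
*Rps21*, chr2:179991984-179992113, plus strand: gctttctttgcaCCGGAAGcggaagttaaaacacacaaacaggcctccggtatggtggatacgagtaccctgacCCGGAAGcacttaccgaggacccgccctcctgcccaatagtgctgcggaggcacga
*Rpl14*, chr9:120480534-120480663, plus strand: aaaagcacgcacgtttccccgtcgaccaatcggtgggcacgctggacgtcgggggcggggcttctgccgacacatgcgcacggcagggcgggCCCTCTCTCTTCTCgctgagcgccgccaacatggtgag
*Rpl36a*, chrX:131120093-131120222, plus strand: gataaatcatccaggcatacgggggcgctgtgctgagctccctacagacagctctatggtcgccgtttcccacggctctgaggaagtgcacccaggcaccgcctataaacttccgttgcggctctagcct
*Rpl10*, chrX:71516055-71516184, plus strand: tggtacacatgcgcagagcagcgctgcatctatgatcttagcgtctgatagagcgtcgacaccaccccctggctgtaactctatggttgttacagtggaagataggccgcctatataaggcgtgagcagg
*Rpl10l*, chr12:67385359-67385488, minus strand: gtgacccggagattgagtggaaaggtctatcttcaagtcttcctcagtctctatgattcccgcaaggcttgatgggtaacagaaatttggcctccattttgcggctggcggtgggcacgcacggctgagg
*Rps21* carried 2 copies of CCGGAAG in this stretch and *Rpl14* a run of 14 pyrimidines across the start site. The stretches of *Rpl36a*, *Rpl10* and *Rpl10l* held no capitals. By the same rule the stretch of *Rpl39l*, the member with least signal, held 1 CCGGAAG and 1 pyrimidine run. That of *Rpl39* held 1 CCGGAAG and 2 runs, and neither stretch is printed here.

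Of the 83 members, 61 matched a RefSeq promoter entry by symbol, each covering 250 bases before to 50 bases after the start site. The motif CCGGAAG was found in 37.7% of them and in 9.12% of all 27025 promoters. A run of at least 8 pyrimidines on the sense strand, searched from 20 bases before the start site to the end of the entry, was found in 73.8% and 25.4%. The run and the reverse strand of CCGGAAG can overlap by letters. GGGCGG, searched on both strands, was in 59.0% of the members' promoters and 35.9% of all, and TATAAA in 9.84% and 14.2%. The members' promoters held a median of 21 CG pairs against 7 in all promoters. In untreated cells the members with CCGGAAG had a slightly lower median signal than the members without it. With the pyrimidine run the median was 31.3 reads per window against 27.7 without it, and with TATAAA 43.5 against 30.25. The median log2 ratio was -1.38 in the 23 members with CCGGAAG and -1.45 in the others, -1.45 with the pyrimidine run and -1.36 without it, and -1.68 in the 6 members with TATAAA and -1.38 without it.

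In untreated cells the ribosomal protein genes were among the genes with most signal per length. Their median was 31.3 reads per window (middle 50% from 17.3 to 54.0), against 7.75 over all genes, and 81 of 83 lay above that median. The median member was at the 91.8 percentile of all genes. In IL-6-treated cells the median was 12.5 scaled reads per window against 8.14 over all genes, and the median percentile was 75.1. The small subunit genes had a median of 35.0 reads per window and the large subunit genes 29.6. The members were short, with a median of 5 windows against 16 over all genes.

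The gene with most signal was *Rps29*, which codes for a small zinc-binding protein of the small subunit. Its 3 windows on chromosome 12, from 70258301 to 70260400, held 1196 reads without and 242 reads with IL-6. This is a mean of 399 and 83.7 scaled reads per window, the highest of the members in both libraries. *Rps21*, on chromosome 2, had 588 and 119 reads over 2 windows, and its stronger window alone held 565 of the 588, or 96.1%. *Rpl14*, on chromosome 9, had 735 and 210 reads over 5 windows, and at least 665 of the 735 were in 1 window. *Rplp1* had 270 and 67 reads over 2 windows. In each of these 4 genes the untreated library was more than 3-fold above the IL-6 library on the table's scale.

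At the other end were *Rpl39l* with 5.00 reads per window in untreated cells and 5.71 after IL-6, *Rpl24* with 6.02 and 4.84, *Rpl30* with a mean of 9.5 and 4.93, *Rpl6* with 9.67 and 6.75, and *Rpl15* with 10.7 and 2.77. All 5 code for large subunit proteins, and *Rpl39l* is the only member that did not pass 21 reads in either library. The transcript that stands for *Rpl24* spans 48 windows, the most of any member, while the next spans 15.

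**Figure D1:**
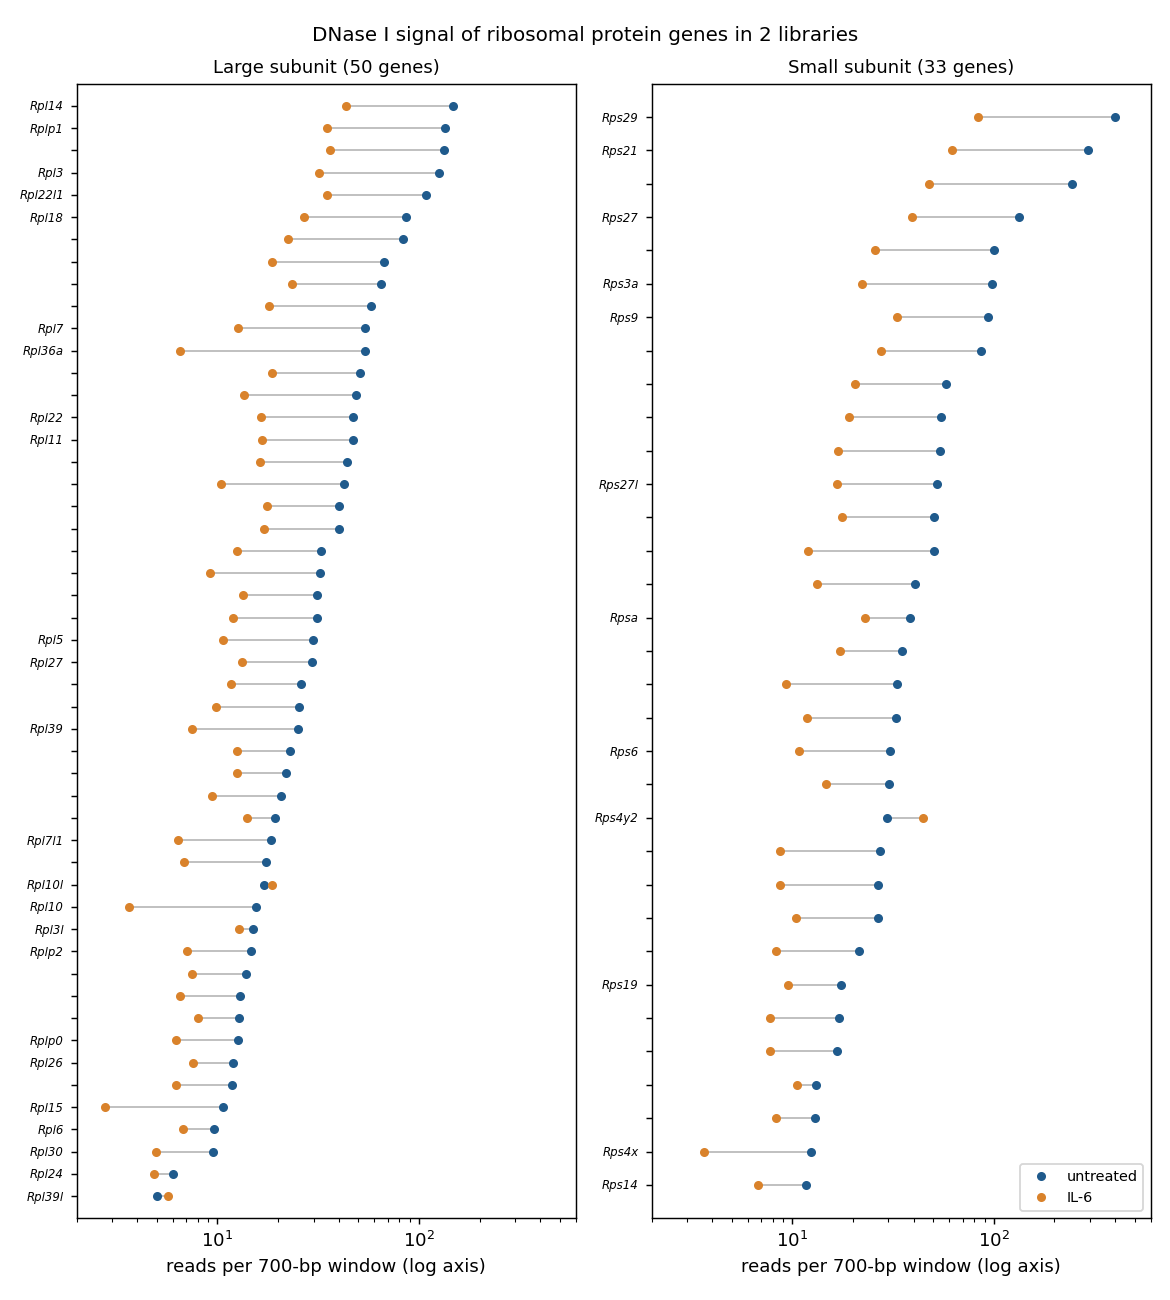
Mean reads per 700-bp window (horizontal, log axis) of each ribosomal protein gene in the untreated library (blue) and the IL-6 library (orange, table's scale), with the large subunit on the left and the small subunit on the right. Names are given for genes described in the text. The orange point lies left of the blue one in 80 genes and right of it in *Rpl39l*, *Rpl10l* and *Rps4y2*.

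On the table's scale 80 of the 83 members were lower in IL-6-treated cells, while a scaling by the median ratio of single windows with more than 21 reads in both libraries left 18 lower. More than 21 reads in at least 1 library were found for 82 members. Of these, 63 were at least 2-fold lower (76.8%), where 13.4% of all 18472 genes past that threshold were. None of the 82 was at least 2-fold higher, where 1.69% of all genes were. The median log2 ratio of the members was -1.48 (range -3.03 to 0.59) and that of all genes 0.03. The difference of these medians was -1.50 on the table's scale and between -1.54 and -1.50 under the other scalings, and 80 members were below the median of all genes under each of them. Summed over the members, 19728 reads became 6445, a ratio of 0.339 (95% interval 0.330 to 0.349). The 95% Clopper-Pearson interval of a member's ratio covers counting error only. It lay below 1 in 74 members, held 1 in 8 and lay above 1 in 1. It lay wholly below 0.5 in 43.

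Of 49 large subunit genes with more than 21 reads, 36 were at least 2-fold lower, with a median log2 ratio of -1.39. Of 33 small subunit genes, 27 were, with a median of -1.51. The pooled ratios were 0.358 (0.345 to 0.371) and 0.316 (0.303 to 0.330). Their intervals, which cover counting error only and no spread between genes or preparations, did not overlap. Pooled ratios weigh the genes with most reads most. The windows held the start site in 24 of 50 large subunit genes and 25 of 33 small subunit genes, a split made after the values were seen. Among genes with the start site the pooled ratios were 0.328 (0.313 to 0.344) and 0.290 (0.276 to 0.304). Among those without it they were 0.418 (0.393 to 0.444) and 0.546 (0.488 to 0.611), so the small subunit had the higher ratio there.

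The lowest ratio was that of *Rpl36a*, a large subunit gene on the X chromosome from 131120256 to 131122496. It had 216 reads in untreated cells and 25 after IL-6, which gave a ratio of 0.120 (0.0761 to 0.182), or -3.03 in log2. Its strongest window held 183 or 184 reads in untreated cells and 21 after IL-6. *Rps29* (log2 ratio -2.25), *Rps21* (-2.25) and *Rps3a* (-2.15) were also among the 5 lowest. *Rps3a*, a small subunit gene, had 687 and 149 reads. *Rps29* and *Rps21* were also the 2 members with most signal.

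All 4 members on the X chromosome were at least 2-fold lower. *Rps4x* had 99 and 28 reads, *Rpl39* 126 and 36, and *Rpl10*, whose protein lies near the catalytic center of the large subunit, had 62 and 14. With *Rpl36a* they went from 503 to 103 reads, a ratio of 0.213 (0.170 to 0.263), while the 79 autosomal members had 0.342 (0.333 to 0.352). Without *Rpl36a* the other 3 went from 287 to 78 reads, a ratio of 0.282 (0.217 to 0.364), which holds the autosomal value. Of all other X-linked genes with more than 21 reads 18.4% were at least 2-fold lower, against 13.0% on other chromosomes, with median log2 ratios of 0.04 and 0.03. Of 50 X-linked genes of up to 12 windows with at least 10 reads per window in untreated cells, 42 were at least 2-fold lower (84.0%), against 39.4% of 3753 such genes on other chromosomes, where the choice by untreated reads also enters the ratio.

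Among members with more than 21 reads, the highest ratios were those of *Rps4y2*, *Rpl10l*, *Rpl3l* and *Rpl24*. *Rps4y2*, which the annotation places on chromosome 6 from 148303232 to 148304020, had 59 reads in untreated cells and 86 after IL-6, a ratio of 1.51 (1.07 to 2.14). It is the only member whose interval lay above 1, and its windows also belong to the coding span of *Tmtc1*. *Rpl10l* had 34 and 36 reads, with a ratio of 1.10 (0.669 to 1.81). *Rpl3l*, the form of *Rpl3* known from muscle, had 181 and 148 (0.849, 0.678 to 1.06), and *Rpl24* 289 and 224 (0.805, 0.673 to 0.961). The intervals of *Rpl10l* and *Rpl3l* hold 1.

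The 3 members above 1, among them *Rpl39l* with 10 and 11 reads, share a feature that the choice did not use. *Rpl10l*, *Rpl39l* and *Rps4y2* have their coding span in 1 piece, without introns, as copies made from messenger RNA do, and they are the only members that do. The feature was noticed after their values were seen, and the intervals of *Rpl10l* and *Rpl39l* hold 1. All 80 members with coding spans in several pieces were below 1 on the table's scale. Among other genes with 1 piece and 2 windows, 622 had more than 21 reads. Their median log2 ratio was 0.05, and 28.8% were at least 2-fold lower.

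**Figure D2:**
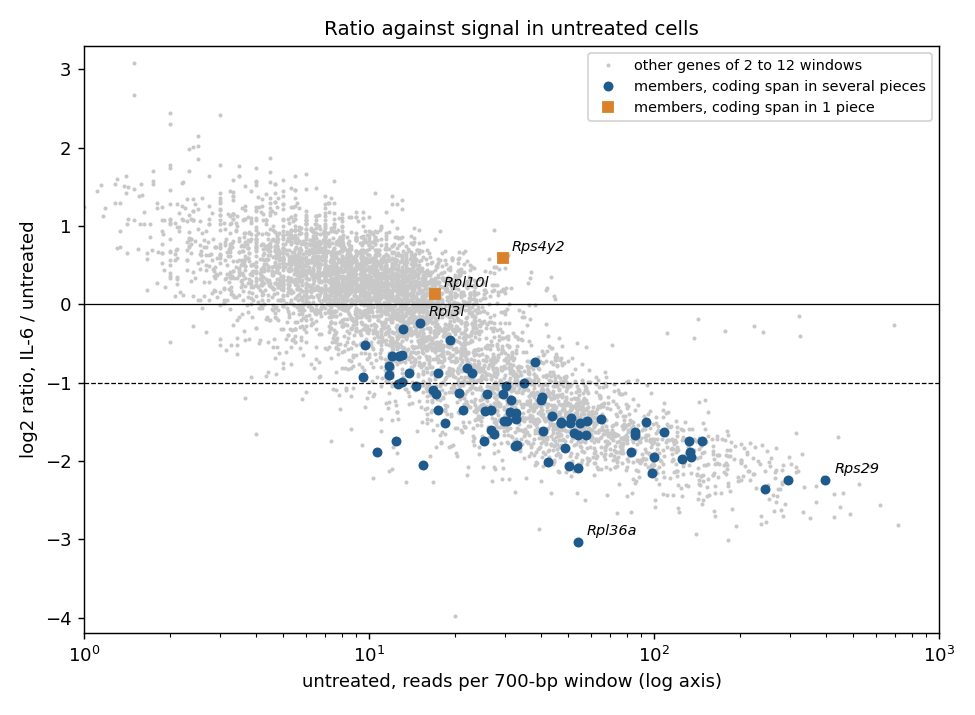
Log2 ratio of IL-6 to untreated cells on the table's scale (vertical) against reads per 700-bp window in untreated cells (horizontal, log axis), for members of up to 12 windows (blue circles, orange squares for coding spans in 1 piece) and for other genes of 2 to 12 windows (grey). The dashed line is a 2-fold lower value, and the members lie among the grey points at 40 reads and over and mostly in their lower part at 10 to 40, with *Rps4y2* and *Rpl10l* above 0. *Rpl39l*, with 21 reads or fewer in both libraries, is left out.

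Of the members, 6 were paralogs by symbol. Each pair of a member and its paralog could be compared. *Rps4y2* and *Rps4x*, which are not among these pairs, had log2 ratios of 0.59 and -1.75, further apart than any of them. *Rpl10l*, known from testis, had a log2 ratio of 0.13 while its X-linked partner *Rpl10* had -2.06. *Rpl39l*, also known from testis, had 0.18 while the X-linked *Rpl39* had -1.74, and *Rpl3l* had -0.24 while *Rpl3* had -1.97. In the other 3 pairs the log2 ratios of both genes were below -1. *Rpl22l1* had -1.63 and *Rpl22* -1.51, *Rpl7l1* had -1.52 and *Rpl7* -2.08, and *Rps27l* had -1.65 and *Rps27* -1.75. *Rpl22l1* had 325 reads over 3 windows in untreated cells and *Rpl22* had 472 over 10, or 108 and 47.2 per window. The coding sequences of the pairs were 54.5% (*Rpl7l1* and *Rpl7*) to 85.3% (*Rpl39l* and *Rpl39*) identical, and *Rpl10l* and *Rpl10* shared 84.8%.

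The stalk proteins, which bring translation factors to the large subunit, were each at least 2-fold lower on the table's scale, *Rplp0* only just. *Rplp0* had 76 reads in untreated cells and 36 after IL-6 (0.492, 0.321 to 0.740), *Rplp1* had 270 and 67 (0.258, 0.194 to 0.338), and *Rplp2* had 73 and 34 (0.484, 0.312 to 0.736). The intervals of *Rplp0* and *Rplp2* reach above 0.5, and with libraries scaled by their total over coding spans the log2 ratio of *Rplp0* was -0.98, short of 2-fold. *Rpsa*, a small subunit protein also known as a laminin receptor, had 191 and 110 reads and a ratio of 0.598 (0.468 to 0.760).

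The genes given here for known roles in blood disease or signaling were lower on the table's scale. So were 80 of the 82 members and 8927 of all 18472 genes with more than 21 reads. *Rps19* and *Rps14*, whose reduced dose impairs red cell production, had 139 and 73 reads (0.545, 0.405 to 0.729) and 47 and 26 reads (0.574, 0.341 to 0.947), and neither was 2-fold lower. *Rpl5* and *Rpl11*, which bind Mdm2 when ribosome assembly is disturbed, had 358 and 123 reads (0.357, 0.288 to 0.439) and 283 and 96 reads (0.352, 0.276 to 0.445). *Rps6*, the substrate of the S6 kinases, had 152 and 52 reads (0.355, 0.254 to 0.490). *Rpl22*, a gene lost in some T-cell leukemias, had 472 and 159 reads (0.350, 0.290 to 0.419). The intervals of *Rps19* and *Rpl11* overlapped between 0.405 and 0.445.

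The ratio went with the signal in untreated cells. Across the 83 members Spearman's rho of untreated signal and log2 ratio was -0.72, as a description, since untreated reads enter both and all points share 2 libraries. Other genes of 2 to 12 windows showed the same order. Of 15 members with at least 80 reads per window, 15 were at least 2-fold lower, with a median log2 ratio of -1.88, and of 382 other genes 96.6% were, with a median of -1.93. At 40 to 80 reads per window 19 of 19 members and 87.9% of 621 other genes were, with medians of -1.52 and -1.48. At lower signal the members were further from the other genes. At 20 to 40 reads per window 82.6% of 23 members and 41.5% of 971 others were lower by this fold, with medians of -1.35 and -0.87. At 10 to 20 it was 42.9% of 21 members and 6.44% of 1677 others, with medians of -0.90 and 0.02. When genes were grouped by signal in the IL-6 library instead, 27 of 33 members with 10 to 20 scaled reads per window were at least 2-fold lower (81.8%) and 21.7% of 2738 others. Above 40 scaled reads it was 4 of 5 members and 83.1% of 154 others.

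**Figure D3:**
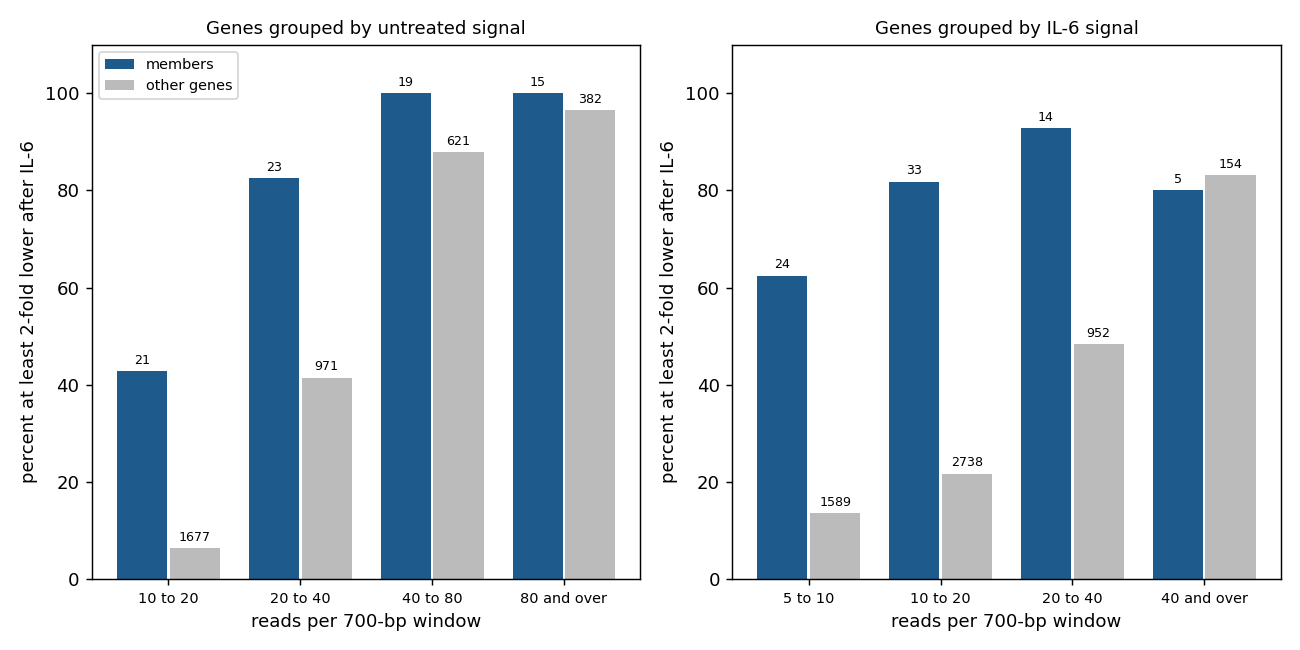
Percent of genes of 2 to 12 windows that were at least 2-fold lower after IL-6 on the table's scale (vertical), in members (blue) and other genes (grey), grouped by reads per 700-bp window in untreated cells (left) and in IL-6-treated cells (right). Numbers above the bars are genes. The bars are close at 80 reads and over on the left (100% and 96.6%) and far apart at 10 to 20 reads (42.9% and 6.44%).

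The signal was uneven between the windows of many members. The mean and SD between windows bound the reads of the strongest window. In untreated cells it held more than 21 reads in 72 members, not in 5, and was undecided in 6. In IL-6-treated cells it did in 39, not in 28, with 16 undecided. The study detected hypersensitive sites by more than 21 reads, but its methods do not state the regions over which it counted. More than 100 reads were certain in 32 and 5 members. The strongest window held over 50% of all reads in untreated cells in 37 members, 7 of which have only 2 windows, not in 24, and was undecided in 22. The SD exceeded the mean in 50 members in untreated cells and 31 after IL-6, and its median ratio to the mean went from 1.17 to 0.81.

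For 49 members the windows held the start site that GENCODE M1 gives for the transcript, and for 34 they began after it. The former had a median of 48.7 reads per window in untreated cells and the latter 17.3. At least 2-fold lower were 46 of 49 and 17 of 33 that passed 21 reads, with median log2 ratios of -1.61 and -1.01. Other genes of up to 12 windows had medians of 6.44 and 8.75 reads per window with and without the start site, and 33.8% and 14.9% were at least 2-fold lower.

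Transcripts that end at different windows gave the reads of a 5′ stretch in 24 members, of which 5 stretches were 1 window and others, such as that of *Rps3* with 7 of 9 windows, were most of the span. Summed over these members the 5′ stretches had 49.1 reads per window in untreated cells and 15.9 after IL-6, a ratio of 0.324 (0.301 to 0.347). The rest of the coding spans had 18.2 and 8.77, a ratio of 0.483 (0.441 to 0.528). The 5′ stretch had the higher mean in 22 of 24 members in each library, and in 18 it had the lower log2 ratio. The 95% intervals of both parts did not overlap in 7 members. In the 9 members whose stretch held the start site the ratios were 0.319 (0.290 to 0.351) and 0.682 (0.579 to 0.802). In the 15 others they were 0.329 (0.296 to 0.365) and 0.416 (0.372 to 0.464). *Rpl13a* alone held 691 of the 1129 untreated reads in the rest of these 15, and of 1508 in all 24. Median log2 ratios of the 5′ stretch and the rest were -1.68 and -0.42 in the 9 members. They were -1.56 and -0.73 in the 15, and -1.67 and -0.65 in all 24.

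The strongest 5′ stretches were those of *Rpl7*, *Rps9* and *Rpl18*, with 220, 204.5 and 192 reads per window in untreated cells. In *Rpl7*, a large subunit gene on chromosome 1, the 1 window from 16094401 to 16095100 had 220 reads in untreated cells and 42 after IL-6, while the other 4 windows had 50 and 19. In *Rps9* the 2 windows at the 5′ end had 409 and 108 reads and the other 3 had 61 and 52. In *Rpl18* 2 windows had 384 and 100 reads and the other 3 had 46 and 30. In *Rpl27*, chosen after its values were seen, the 5′ window had 103 and 24 reads and the other 4 windows 44 and 40. *Rpl3l* was again apart, with 63 and 68 reads in its 7 windows at the 5′ end and 118 and 80 in the rest.

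**Figure D4:**
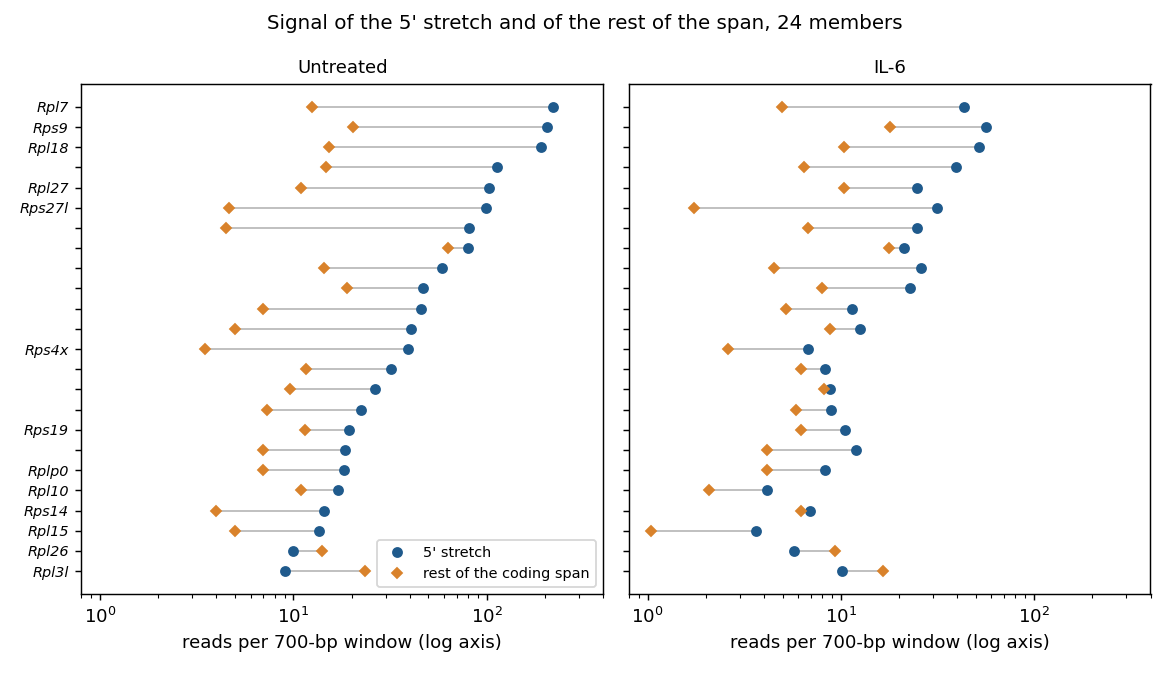
Reads per 700-bp window (horizontal, log axis) of the 5′ stretch (blue circles) and of the rest of the coding span (orange diamonds) in the 24 members where both could be recovered, for the untreated library (left) and the IL-6 library (right, table's scale). The 5′ stretch lies to the right in 22 of 24 members in each panel, with *Rpl26* and *Rpl3l* as the exceptions, and names are given for genes described in the text.

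Features of the windows themselves were measured beside these results. The share of 32-bp sequences that occur once in NCBIM37 was 62.3% to 98.8% across the members (median 85.8%). Ribosomal protein genes are known for processed copies elsewhere in the genome. Of 17 members with at least 90% and more than 21 reads, 11 were at least 2-fold lower, with a median log2 ratio of -1.22, and of 65 below 90% it was 52, with a median of -1.50. Small nucleolar RNAs lie inside 30 members, 58 in all, and the medians with and without them were -1.49 and -1.45. The windows of 9 members also touch the coding span of another gene, and their median was -1.63 against -1.46 for the rest.

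Other lists of the translation machinery had medians nearer to 0. Of 74 mitochondrial ribosomal protein genes past the 21 reads, 36 were at least 2-fold lower, with a median log2 ratio of -0.99. *Mrpl34* had the most signal and the lowest ratio of them, with 919 and 167 reads. Of 30 genes of ribosome assembly in the nucleolus 11 were, with a median of -0.82. *Nip7* had the most signal there (393 and 107 reads) and *Nop10* the lowest ratio (201 and 34 reads). Of 61 genes with translation factor symbols 20 were, with a median of -0.57. This list holds every Eif symbol with a number, also regulators that are not factors themselves, such as *Eif2ak2*, *Eif2c1* and *Eif4ebp1*. *Eif1*, which helps to find the start codon, had the most signal (487 and 119 reads), and *Eif4a1*, the helicase that unwinds messenger RNA, the lowest ratio (521 and 116 reads). Of 7 ribosomal or associated proteins outside the symbol rule 3 were, and *Fau*, which codes for a small subunit protein fused to a ubiquitin-like one, had the most signal and the lowest ratio (483 and 102 reads). None of these genes was at least 2-fold higher. Their median signal in untreated cells was 21.2, 21.7, 10.97 and 38.8 reads per window, so that all but the last list were below the 31.3 of the cytosolic ribosomal protein genes. In the same order the lists had median spans of 9, 18, 26 and 9 windows, against 5 for the cytosolic ribosomal protein genes. The part of span length in the medians was not tested.

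**Figure D5:**
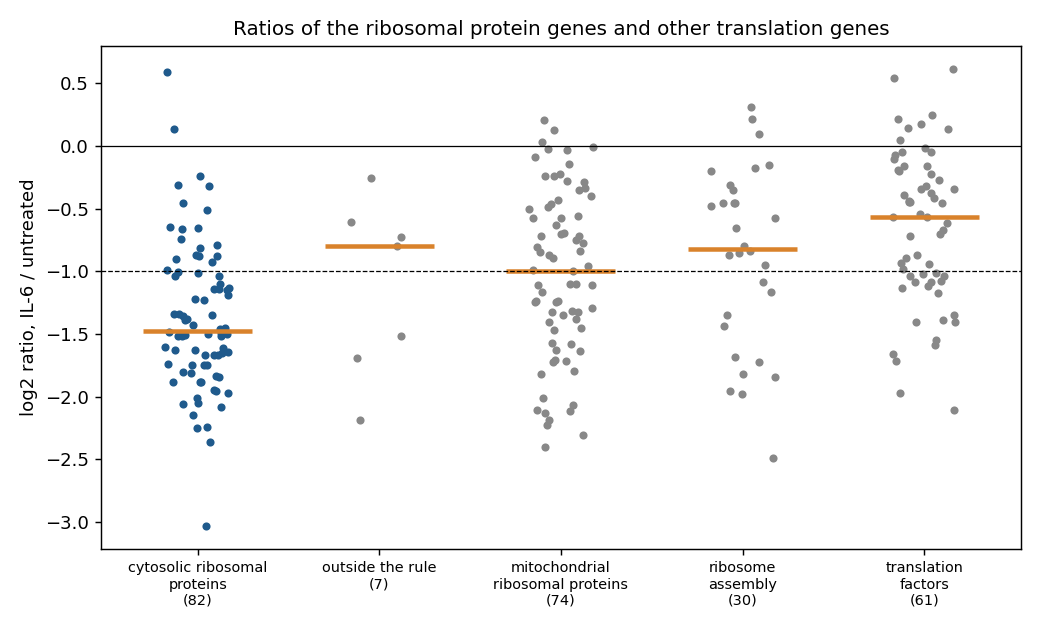
Log2 ratio of IL-6 to untreated cells on the table's scale (vertical) for each gene that passed 21 reads, in the cytosolic ribosomal proteins (blue) and 4 other lists of translation genes (grey), with the number of genes under each name. Orange bars are medians (-1.48 for the cytosolic ribosomal proteins, -0.57 for the genes with translation factor symbols) and the dashed line is a 2-fold lower value.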

How the data were processed

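The authors digested nuclei with DNase I, sequenced short fragments, aligned trimmed reads with BWA to NCBIM37 (mm9) and used Seqmonk for the table. For each of 55432 transcripts the deposited signal is the mean, with its SD, of the 700-bp windows that overlap its coding part. Means were multiplied by the number of windows and divided by the worth of 1 read, and no product lay more than 0.003 from whole reads. The transcript with the most windows stood for a gene. For log2 ratios 0.5 reads were added and the table's scaling was kept. Counts use a fold of 2 among genes that exceed 21 reads in at least 1 library. Ratios have 95% Clopper-Pearson intervals. Recovery was tested on simulated data with counting error only. Reads were recovered for all 14295 transcripts drawn. The 95% interval held the set fold in 185 of 200 changed genes. How reads that match several places were placed is not given in the sources used here.

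The members and lists were chosen with earlier results of these data known. Named are the 5 members with the highest and lowest untreated signal and ratio, paralogs with partners, the stalk genes, *Rpsa*, 7 genes with roles in disease or signaling, the 3 strongest 5′ stretches, and the highest signal and lowest ratio of each other list. Some genes under this rule are not reported here. Start sites and identities came from GENCODE M1. Alternatives covered the scaling, reads added, transcript, thresholds and uniqueness. Members without a promoter entry include *Rpl17*, *Rpl21*, *Rpl23a*, *Rpl29*, *Rpl3*, *Rpl30*, *Rpl32*, *Rpl36*, *Rpl7*, *Rpl8*, *Rplp1*, *Rps14*, *Rps20*, *Rps27a*, *Rps29*, *Rps3a* and *Rps4y2*. Software was numpy 2.4.6, scipy 1.17.1, pandas 2.3.3 and matplotlib 3.10.9 in Python 3.11.15.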

Additional observations from a re-analysis of the deposited data

How the results depend on the processing

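No paired analysis was possible because there is only 1 library a group. Of 39 alternatives for the members' signal, ratio, median and counts, 32 kept signals, ratios and medians within their limits of counting error and counts within 1.5 times the reported one. The 3 other scalings planned shift every log2 ratio by only -0.05 to 0.04, so they test single genes and lists little, and *Rplp0* fell short of 2-fold lower under the scaling by the total over coding spans (-0.98 in place of -1.01). A scaling by the median ratio of 544 single windows with more than 21 reads in both libraries was added after seeing the data. It shifts every log2 ratio by 1.83 and reversed the direction. The pooled ratio was then 1.20 in place of 0.339 and the median log2 ratio 0.35 in place of -1.48, beside 1.89 over all genes, with 14 of 83 members higher by at least 2-fold against 17655 of 20848 genes in all, 1 member lower by this fold against 18 genes, and 62 members on the other side of 1. Those windows were chosen for high reads in both libraries. Without any scaling the pooled ratio was 0.327, just outside its counting interval (0.330 to 0.349). With at least 90% unique sequence 11 of 17 members were at least 2-fold lower, or 64.7% against 76.8% of all members that passed 21 reads, and the cause of the lower share was not tested. With a fold of 1.5, 1 member was higher. Leaving out a replicate was not possible with 1 library per condition. Counting error limits the weak members most, and variation between preparations was not measured.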
